A study of Homo sapiens with 12 samples.

Results

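A set of 10 genes that cells switch on when oxygen falls, and that act outside glycolysis, were followed in prostate cancer cells given a compound described as an inhibitor of the transcription factor ONECUT2. The genes were named by symbol (ADM, ANKRD37, VEGFA, CA9, EGLN1, EGLN3, BNIP3, NDRG1, ANGPTL4 and P4HA1), and every probe set that the platform annotation maps to a symbol was taken. This gave 20 probe sets for 9 of the 10 genes, out of 54675 probe sets on the array and 19775 named genes. No listed probe set carried the name of CA9, which is not analysed here. The cells were 22Rv1, an established human prostate carcinoma line, grown in serum-containing medium, and RNA was hybridised to Affymetrix U133 Plus 2.0 arrays. Groups were treated with the small molecular inhibitor for 4 h, 6 h or 16 h, or with vehicle, with 3 arrays each. The labels give no dose, no solvent and no time for vehicle, and do not say whether replicates were separate cultures, so the p-values measure the spread between these arrays only. The titles of the 16 h arrays lack a code element that the other titles carry, so anything it stands for cannot be told apart from 16 h of treatment.

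Hypoxia-inducible factors (HIFs) are transcription factors with an oxygen-regulated alpha subunit, HIF-1 alpha or HIF-2 alpha, and a constant partner, ARNT. In oxygen, prolyl hydroxylases of the EGLN family mark the alpha subunit for destruction through the VHL ubiquitin ligase, and without oxygen the pair binds DNA at short elements built on the core ACGTG. Their targets send vascular signals, remodel the matrix, remove mitochondria and feed back on the pathway, although several of them also answer to other stress pathways in normal oxygen. Prostate tumours are often poorly oxygenated, but the labels mention no low-oxygen culture.

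The promoters of the 4 genes with the largest changes at 16 h, among those in the RefSeq promoter table, are shown. Each window runs 5′ to 3′ from 250 bases before to 50 bases after the annotated start in GRCh38.p14, with capitals marking the core ACGTG read on either strand. The windows are chr11:10304823-10305122 on the plus strand for ADM, chr4:185396591-185396890 on the plus strand for ANKRD37, chr10:131981874-131982173 on the minus strand for BNIP3 and chr10:73096817-73097116 on the minus strand for P4HA1.
ADM: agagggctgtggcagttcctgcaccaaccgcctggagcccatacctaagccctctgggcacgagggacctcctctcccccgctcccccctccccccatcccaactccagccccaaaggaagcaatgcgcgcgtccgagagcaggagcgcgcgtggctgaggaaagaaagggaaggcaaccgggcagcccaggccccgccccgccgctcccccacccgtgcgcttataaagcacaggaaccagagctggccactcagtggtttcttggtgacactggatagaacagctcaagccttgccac
ANKRD37: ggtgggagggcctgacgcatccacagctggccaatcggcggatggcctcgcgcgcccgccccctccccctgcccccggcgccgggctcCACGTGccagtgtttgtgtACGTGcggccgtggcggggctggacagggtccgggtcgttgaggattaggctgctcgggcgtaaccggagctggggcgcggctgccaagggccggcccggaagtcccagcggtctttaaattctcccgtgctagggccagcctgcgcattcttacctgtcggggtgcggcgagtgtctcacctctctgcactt
BNIP3: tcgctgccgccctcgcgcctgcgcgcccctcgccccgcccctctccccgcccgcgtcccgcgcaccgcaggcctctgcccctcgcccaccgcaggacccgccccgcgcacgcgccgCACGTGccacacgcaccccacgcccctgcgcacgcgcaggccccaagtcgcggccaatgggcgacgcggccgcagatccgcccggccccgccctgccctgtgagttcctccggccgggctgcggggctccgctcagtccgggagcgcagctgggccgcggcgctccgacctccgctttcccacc
P4HA1: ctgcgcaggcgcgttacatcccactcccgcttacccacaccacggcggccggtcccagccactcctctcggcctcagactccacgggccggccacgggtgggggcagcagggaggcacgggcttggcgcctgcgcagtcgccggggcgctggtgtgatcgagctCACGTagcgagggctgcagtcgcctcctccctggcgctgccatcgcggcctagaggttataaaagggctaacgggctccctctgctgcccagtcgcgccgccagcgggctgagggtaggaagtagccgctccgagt
The core ACGTG occurred 3 times in the ANKRD37 window, 2 times in the BNIP3 window, which counts both strands of a palindromic CACGTG, and 1 time in the P4HA1 window. The ADM window held no ACGTG, and held the related core GCGTG 1 time. GCGTG occurred 4 times in the BNIP3 window and 0 times in the ANKRD37 and P4HA1 windows. In ANKRD37, too, 2 of the ACGTG matches are the opposite strands of a palindromic CACGTG, the E-box core. Of the other genes with an entry, EGLN1, ANGPTL4 and CA9 held 1 ACGTG each and EGLN3 held 0. VEGFA and NDRG1 are named only. Of all 35116 windows in the table, 21.4% held ACGTG on either strand, 36.5% held GCGTG and 7.26% held CACGTG. For the 15000 windows of tested genes the shares were higher, at 25.1%, 48% and 9.21%. At least 2 ACGTG matches, counted on both strands, were held by 8.82% of all windows and 11% of those of tested genes. A match is a run of letters in a window and says nothing about binding.

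The deposited values are log2 signals, and a signal of 1 probe set cannot be set against that of another. The brightest probe set of a gene, the one with the top average on the 12 arrays, stands for it below, and the gene was tested where that average reached 2.11, the median of all probe sets. All 9 measured genes passed, each with a vehicle mean above this level. A gene is said to have risen or fallen where limma's Benjamini-Hochberg adjusted p over all 12635 tested genes was below 0.05. Changes on the log2 scale carry the standard error (SE) of the fit, and group means carry the SD of 3 arrays. In bulk RNA, a change in every cell and a change in the share of cells that respond cannot be told apart.

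At 16 h, 7 of the 9 genes rose against vehicle, 1 fell (ANGPTL4) and 1 did not pass (EGLN3). Over all tested genes 26.0% rose and 16.8% fell in that comparison. The median log2 change of the 9 genes was 0.86, against 0.05 for all tested genes. The genes were chosen with earlier results of these data known, so this contrast is a description and not an independent test. At 4 h only ANGPTL4 passed, as a fall, where 0.127% of genes fell and 0.332% rose. At 6 h none passed by limma, where 0.0237% of genes rose and 0.00791% fell, and 1 of the 9, ADM, had an unadjusted p below 0.05, as did 8.22% of all genes.

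**Figure D1:**
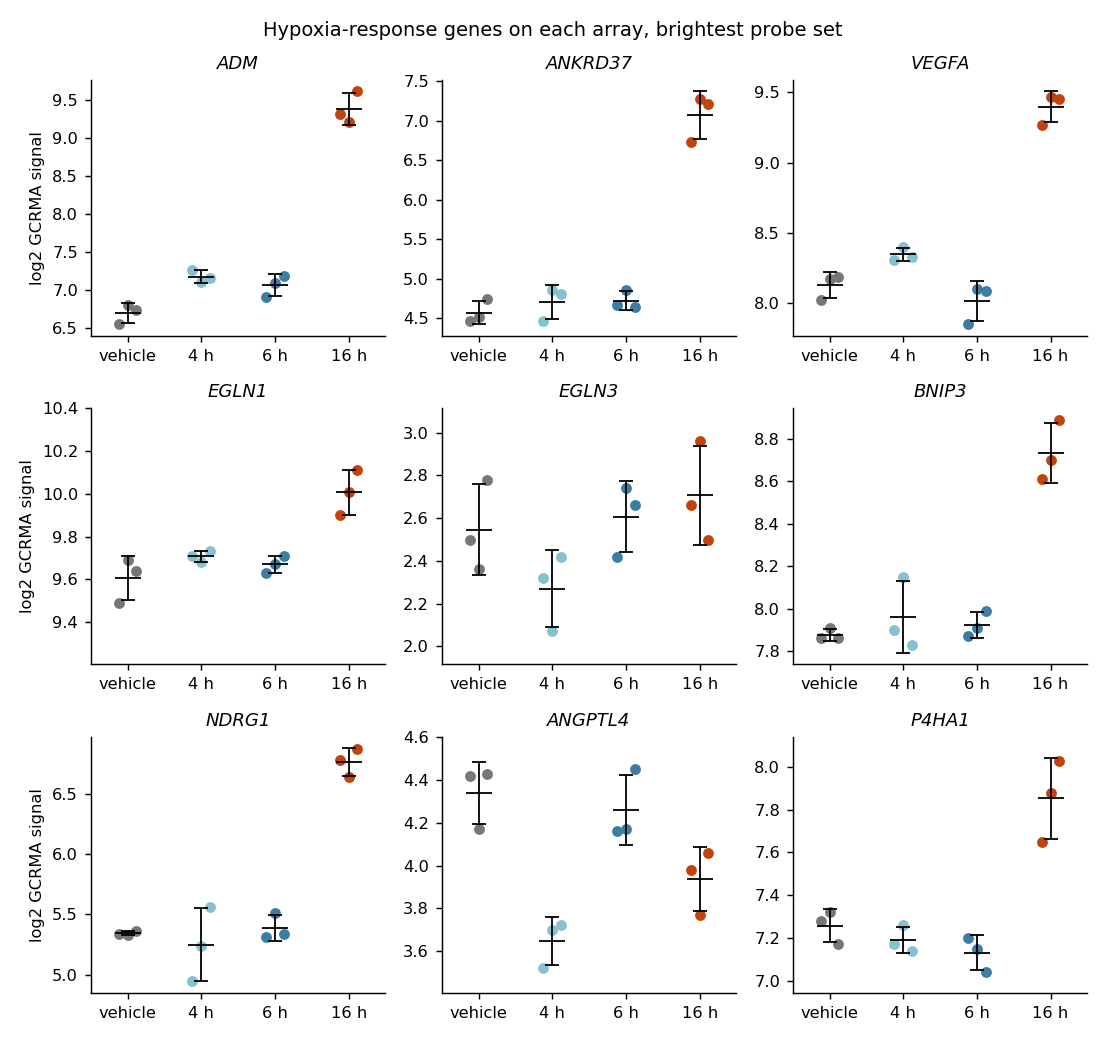
Log2 GCRMA signal (y axis, a separate range per panel) of the brightest probe set of each of the 9 genes in the vehicle, 4 h, 6 h and 16 h groups (x axis). Points are arrays, and bars are the mean and SD of 3 arrays. In 7 panels the 3 arrays of 16 h lie above all 9 others, as they do for 22.2% of all tested genes, while for 30.5% they lie above the 3 vehicle arrays. ANGPTL4 is lowest at 4 h, and EGLN3 overlaps between 16 h and vehicle.

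Of the 3 secreted signals, ADM and VEGFA rose at 16 h and ANGPTL4 fell. ADM encodes adrenomedullin, a peptide that widens vessels and signals through the receptor CALCRL with RAMP partners. Its log2 signal was 6.55, 6.80 and 6.74 on the vehicle arrays, 7.27, 7.11 and 7.16 at 4 h, 6.91, 7.10 and 7.19 at 6 h, and 9.32, 9.21 and 9.62 at 16 h. Every treated array was above every vehicle array, and the 16 h arrays stood far above the rest. ADM rose 6.44-fold at 16 h against vehicle (by limma with 3 arrays per group, log2 change 2.69 ± 0.11 SE and adjusted p = 1.2e-08), the 20th highest log2 change of 12635 genes. At 4 h its log2 change was 0.49 ± 0.11 (95% interval 0.24 to 0.73, adjusted p = 0.11), and at 6 h it was 0.37 ± 0.11 (0.12 to 0.61, adjusted p = 0.35). With a trended and robust variance prior the 4 h change passed (adjusted p = 0.017). Groups that did not overlap, with treated arrays higher, were found for 9.21% of all tested genes at 4 h and 8.25% at 6 h.

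VEGFA encodes the vascular endothelial growth factor that drives vessel growth through receptors on endothelial cells. On its brightest probe set it read 8.02, 8.17 and 8.19 on the vehicle arrays, 8.31, 8.40 and 8.33 at 4 h, 7.85, 8.10 and 8.09 at 6 h, and 9.27, 9.47 and 9.45 at 16 h. The 4 h arrays lay just above vehicle without overlap, as did those of 9.21% of all tested genes. The 6 h arrays overlapped vehicle, and the 16 h arrays were the highest. VEGFA rose 2.41-fold at 16 h (log2 change 1.27 ± 0.09 SE, adjusted p = 5.6e-07 by limma). Its log2 change of 0.23 at 4 h (adjusted p = 0.36) and of -0.11 at 6 h (adjusted p = 0.80) did not pass, nor did the 6 h to 4 h difference of -0.34 (adjusted p = 0.27).

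ANGPTL4 encodes a secreted inhibitor of lipoprotein lipase, induced by fasting through PPAR receptors as well as by hypoxia. Its log2 signal was 4.42, 4.17 and 4.43 on the vehicle arrays, 3.52, 3.70 and 3.72 at 4 h, 4.16, 4.17 and 4.45 at 6 h, and 3.98, 3.77 and 4.06 at 16 h. The 4 h and the 16 h arrays were below all vehicle arrays, which was so for 9.10% of all tested genes at 4 h and 20.9% at 16 h, while the 6 h arrays overlapped vehicle. ANGPTL4 fell 1.62-fold at 4 h (log2 change -0.70 ± 0.11 SE, adjusted p = 0.019 by limma), the 10th lowest log2 change of all tested genes, and fell 1.33-fold at 16 h (-0.41 ± 0.11, adjusted p = 0.0098). The 6 h change of -0.08 had an interval of -0.32 to 0.15. The 6 h arrays were above the 4 h arrays by 0.61 ± 0.11, which did not pass (adjusted p = 0.091) but did under 4 alternatives (quantile normalisation, a trended and robust prior, array weights and the replicate block, adjusted p between 0.031 and 0.047). With its probe sets averaged the changes were -0.40 at 4 h and -0.23 at 16 h. The 4 h fall lost its call without any 1 of 5 arrays (vehicle replicate 1 or 3, or 4 h replicate 1, 2 or 3), with adjusted p between 0.053 and 0.081.

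**Figure D2:**
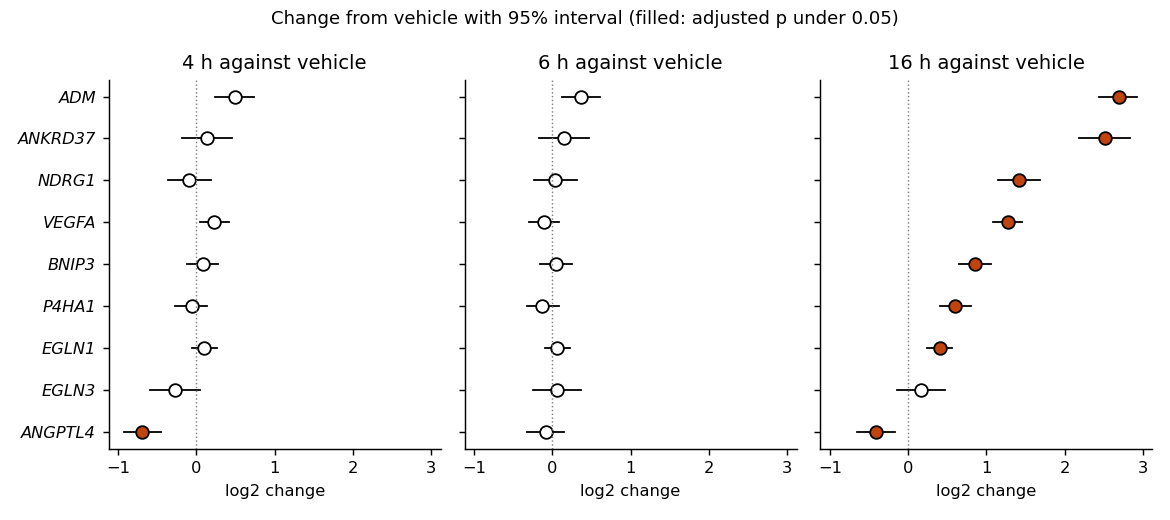
Log2 change from vehicle (x axis) with its 95% interval for each of the 9 genes (y axis, ordered by the 16 h change) at 4 h, 6 h and 16 h. Filled points have an adjusted p below 0.05 by limma. Most intervals span 0 at 4 h and 6 h, and at 16 h the changes run from -0.41 for ANGPTL4 to 2.69 for ADM.

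Of the 2 oxygen sensors, EGLN1 rose at 16 h and EGLN3 did not pass against vehicle. EGLN1 encodes the main HIF prolyl hydroxylase, itself a HIF target. Its log2 signal was 9.49, 9.69 and 9.64 on the vehicle arrays, 9.71, 9.68 and 9.73 at 4 h, 9.63, 9.67 and 9.71 at 6 h, and 9.90, 10.01 and 10.11 at 16 h. The 16 h arrays were the highest, by a narrow margin. EGLN1 rose 1.32-fold at 16 h (log2 change 0.40 ± 0.07 SE, adjusted p = 0.00087 by limma). EGLN3, another hydroxylase that hypoxia strongly induces in many cells, was dim. It read 2.50, 2.36 and 2.78 on the vehicle arrays, 2.32, 2.07 and 2.42 at 4 h, 2.42, 2.74 and 2.66 at 6 h, and 2.66, 2.96 and 2.50 at 16 h. All groups overlapped vehicle, and the highest unspiked bacterial control on each array lay between 1.87 and 2.28. The EGLN3 change at 16 h was 0.16 against vehicle, with an interval of -0.15 to 0.47 (adjusted p = 0.39). It passed only for 16 h against 4 h (0.44 ± 0.14, adjusted p = 0.029), and not without 4 h replicate 1, 4 h replicate 2 or 16 h replicate 2.

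ANKRD37 and NDRG1 rose at 16 h and did not pass earlier. ANKRD37 encodes a small ankyrin repeat protein and is a direct HIF-1 target. It read 4.46, 4.51 and 4.74 on the vehicle arrays, 4.46, 4.85 and 4.80 at 4 h, 4.66, 4.86 and 4.64 at 6 h, and 6.73, 7.28 and 7.21 at 16 h. The early groups overlapped vehicle, and the 16 h arrays did not. ANKRD37 rose 5.68-fold at 16 h (log2 change 2.51 ± 0.15 SE, adjusted p = 2.1e-07 by limma), the 27th highest log2 change. Averaged with its second probe set, which was at or below the unspiked controls on all 12 arrays, the change was 1.30.

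NDRG1 encodes a stress-responsive cytoplasmic protein that androgen also regulates in prostate cells. Its log2 signal was 5.34, 5.33 and 5.36 on the vehicle arrays, 4.95, 5.24 and 5.56 at 4 h, 5.31, 5.51 and 5.34 at 6 h, and 6.78, 6.64 and 6.87 at 16 h. The 4 h arrays spread on both sides of vehicle, with an SD of 0.30 against 0.02 for vehicle. NDRG1 rose 2.68-fold at 16 h (log2 change 1.42 ± 0.13 SE, adjusted p = 4.8e-06 by limma).

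BNIP3 and P4HA1, which act in the mitochondrion and in the endoplasmic reticulum, rose at 16 h as well. BNIP3 encodes a mitochondrial outer membrane protein that promotes removal of mitochondria. It read 7.86, 7.91 and 7.86 on the vehicle arrays, 7.90, 8.15 and 7.83 at 4 h, 7.87, 7.91 and 7.99 at 6 h, and 8.61, 8.70 and 8.89 at 16 h, which alone stood clear of vehicle. BNIP3 rose 1.81-fold at 16 h (log2 change 0.86 ± 0.09 SE, adjusted p = 2.3e-05 by limma). P4HA1 encodes the catalytic subunit of collagen prolyl 4-hydroxylase. Its log2 signal was 7.28, 7.32 and 7.17 on the vehicle arrays, 7.17, 7.26 and 7.14 at 4 h, 7.20, 7.15 and 7.04 at 6 h, and 7.65, 7.88 and 8.03 at 16 h. The early arrays reached slightly below the vehicle range, and the 16 h arrays were above all others. P4HA1 rose 1.51-fold at 16 h (log2 change 0.60 ± 0.09 SE, adjusted p = 0.00032 by limma). Its 16 h call was lost when its probe sets were averaged (0.18, adjusted p = 0.15), and the gene is not tested when names ending in _s_at or _x_at are left out. The second P4HA1 probe set, at or below the unspiked controls on all 12 arrays, averaged 1.06 at 16 h and 1.30 in vehicle.

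The 16 h arrays also differed from the 6 h arrays. In the direct test of 16 h against 6 h, 7 of the 9 genes rose and ANGPTL4 fell, where 25.1% of all tested genes rose, 17.6% fell and 42.7% changed in all. The log2 differences were 2.36 for ANKRD37, 2.32 for ADM, 1.38 for both VEGFA and NDRG1, 0.81 for BNIP3, 0.72 for P4HA1, 0.34 for EGLN1 and -0.32 for ANGPTL4. The ANGPTL4 difference did not pass without 6 h replicate 3 (-0.23, adjusted p = 0.12), without 16 h replicate 2 (-0.24, adjusted p = 0.12) or with only these 2 groups in the fit (adjusted p = 0.051). With probe sets averaged the log2 differences were 1.21 for ANKRD37, 0.91 for VEGFA, 0.54 for EGLN1 and 0.25 for P4HA1. Quantile normalisation turned the balance of all genes, with 2646 risen and 3055 fallen against 3168 and 2222 in the deposited scaling, and for 16 h against 4 h with 2615 and 2696 against 3130 and 2038. None of the 9 passed for 6 h against 4 h by limma, although 3 had an unadjusted p below 0.05 (VEGFA, EGLN3 and ANGPTL4), where 0.0950% of all genes passed and 9.39% had such a p. Against 4 h, 8 of the 9 rose at 16 h, where 24.8% of all genes rose, and ANGPTL4 was higher by 0.29 (adjusted p = 0.053). For the 7 genes that rose at 16 h, the order of levels was therefore 16 h above the other 3 groups, and those 3 did not differ past the threshold. For P4HA1 with its probe sets averaged, 16 h against 4 h did not pass either (0.22, adjusted p = 0.081).

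Most of the 9 genes had more than 1 probe set. Of the 20 probe sets, 15 passed the signal filter, and the other 5, 1 each for ANKRD37, EGLN1, EGLN3, ANGPTL4 and P4HA1, were at or below the unspiked controls on all 12 arrays. Fitted over 27306 probe sets, 12 of the 15 rose and 1 fell at 16 h, where 23.0% of all probe sets rose and 16.7% fell. Both BNIP3 probe sets rose, by 0.86 and 0.63. All 3 tested EGLN1 probe sets rose, by 0.40 on the brightest, 0.64 on the _s_at probe set and 1.08 ± 0.15 SE on the _x_at probe set. The last read 7.05, 7.01 and 7.07 at 16 h and 5.94, 5.71 and 6.25 on the vehicle arrays, and its change exceeded that of the brightest by 0.68. VEGFA had 4 tested probe sets, of which 3 rose, by 1.27, 1.17 and 0.91. The remaining VEGFA probe set, a dimmer one of the _s_at class, read 4.12, 4.22 and 4.59 at 16 h and 3.99, 3.81 and 4.17 on the vehicle arrays, which overlapped, and its change of 0.32 (interval 0.06 to 0.59) did not pass. It was smaller than that of the brightest by 0.95. The 6 differences of this kind, for VEGFA, EGLN1 and BNIP3, had p between 0.1 and 0.4 by two-sided exact permutation tests. With 3 against 3 arrays no such test can go below 0.1, so these tests could not decide whether the probe sets differ. Names ending in _s_at or _x_at mark probe sets that can bind several transcripts or related genes, and 14 of the 20 were of these classes. Where each lies along its transcript is not given in the sources used here.

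**Figure D3:**
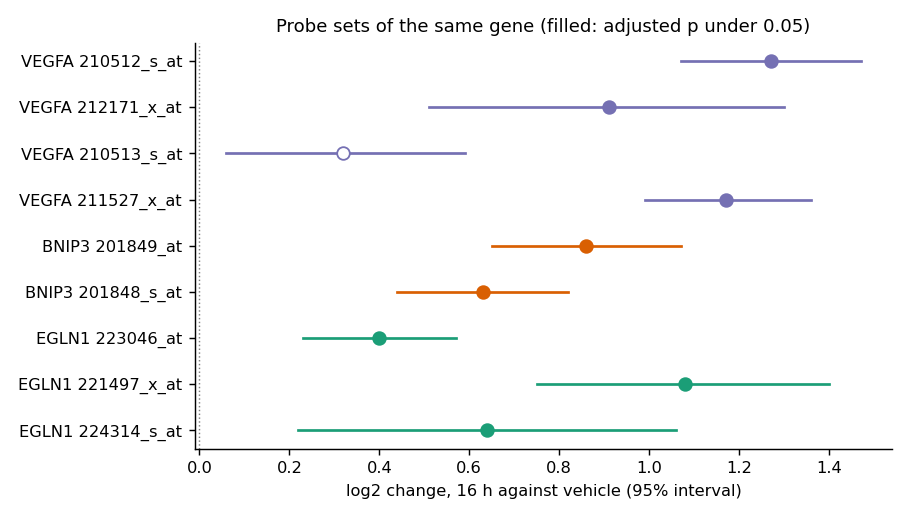
Log2 change at 16 h against vehicle (x axis) with its 95% interval for every tested probe set of VEGFA, BNIP3 and EGLN1 (y axis). Filled points have an adjusted p below 0.05 over 27306 probe sets. The VEGFA probe set at 0.32 and the EGLN1 probe set at 1.08 have intervals apart from that of their gene's brightest probe set.

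Genes of the HIF pathway itself had log2 changes between -0.40 and 0.61 at 16 h. Of 16 HIF subunits and regulators 14 were tested, and at 16 h 5 rose and 1 fell, with a median log2 change of 0.13, where 26.0% of all genes rose and 16.8% fell. The risers were EPAS1, which encodes HIF-2 alpha (log2 change 0.61 ± 0.11 SE, adjusted p = 0.0012 by limma), the coactivator genes CREBBP (0.53) and EP300 (0.51), the ubiquitin ligase gene SIAH2 (0.41) and, picked out after its value was seen, the VHL complex subunit gene ELOC (0.20). RBX1, the ring subunit of the same ligase, also picked out afterwards, fell by 0.40. SIAH2 and ELOC passed narrowly (adjusted p = 0.047 and 0.048 by limma), and for SIAH2 the 16 h and vehicle arrays overlapped. HIF1A itself had a log2 change of 0.06 ± 0.07 SE (adjusted p = 0.53), with means of 11.00 at 16 h and 10.95 in vehicle. HIF activity is set mainly by protein stability, which arrays do not measure. ONECUT2, the named target, had changes of 0.10 at 4 h, 0.00 at 6 h and 0.53 ± 0.10 SE at 16 h (adjusted p = 0.0016 at 16 h).

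Of 30 tested other hypoxia-response genes outside glycolysis, 16 rose at 16 h, 3 fell and 11 did not pass, with a median log2 change of 0.40, where 26.0% of all genes rose and 16.8% fell. DDIT4, a brake on mTOR, rose 8.37-fold, the transcriptional repressor gene NFIL3 5.21-fold, the histone demethylase gene KDM3A 3.06-fold and the repressor gene BHLHE41 2.98-fold (log2 SE 0.11, 0.20, 0.12 and 0.16). The 3 that fell, picked out afterwards, were ZNF395 by 0.79, TMEM45A by 0.48 and PLOD2 by 0.31 on the log2 scale. At 4 h, where 0.332% of all genes rose and 0.127% fell, 1 rose and 1 fell, both picked out afterwards. EDN1, the vasoconstrictor endothelin 1, rose 1.61-fold (log2 change 0.69 ± 0.11, adjusted p = 0.019 by limma), and IGFBP3, which binds insulin-like growth factors, fell 1.50-fold (-0.58 ± 0.09, adjusted p = 0.019).

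Of 19 tested glycolytic hypoxia-response genes, 9 rose and 4 fell at 16 h, with a median log2 change of 0.18, against the same shares of all genes (26.0% and 16.8%). PFKFB3, which makes an activator of glycolysis, rose by 1.14 ± 0.13, and PDK1, which holds back pyruvate entry into mitochondria, rose by 0.68 ± 0.16 (log2, SE). PKM and PFKL, which encode a pyruvate kinase and a phosphofructokinase, fell by 1.79 and 1.01. None of the 19 passed at 4 h or 6 h by limma. Of all genes 0.332% rose and 0.127% fell at 4 h, and 0.0237% and 0.00791% at 6 h.

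Of 18 tested close relatives and receptors of the 9 genes, 3 rose at 16 h, 3 fell and 12 did not pass, with a median of 0.03, where 26.0% of all genes rose and 16.8% fell. Some of the 18, including the 3 risers and PLOD2, are also counted in the lists above. BNIP3L, the paralogue of BNIP3, rose 2.21-fold (log2 change 1.15 ± 0.08 SE), P4HA2, the paralogue of P4HA1, rose 2.03-fold (1.02 ± 0.09), and the carbonic anhydrase gene CA12 rose 1.36-fold. NDRG4, a relative of NDRG1, fell 1.25-fold, and PLOD2 and RAMP1, picked out afterwards, fell 1.24-fold and 1.20-fold. Set beside ANGPTL4, 11 other PPAR target genes had 2 risers (PDK4 by 0.76 and SLC25A20 by 0.44), 1 faller (HADHA by -0.40) and a median of 0.01 at 16 h. None of the 11 passed at 4 h by limma, where 0.332% of all genes rose and 0.127% fell, so this count says little.

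**Figure D4:**
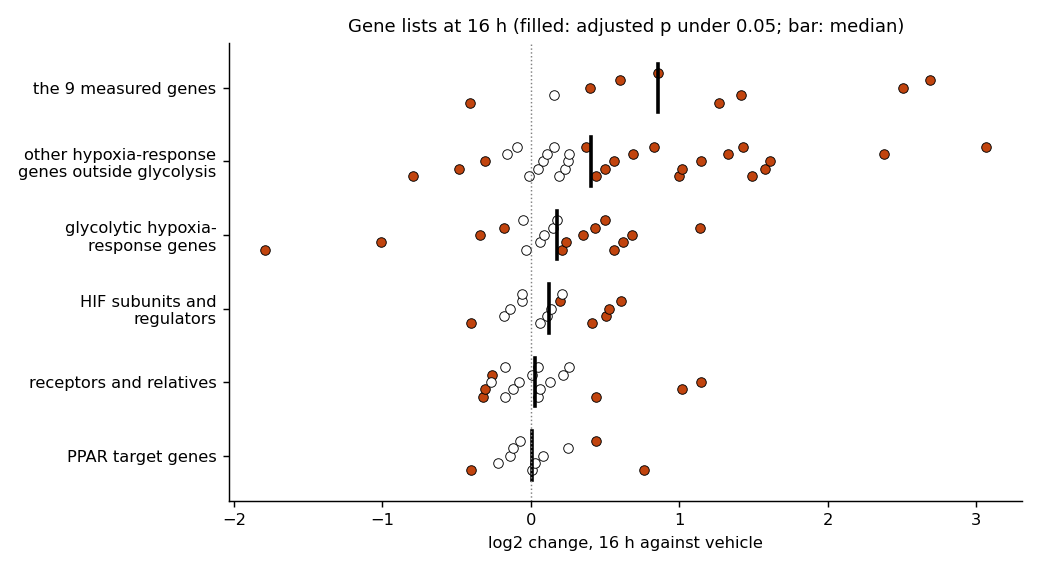
Log2 change at 16 h against vehicle (x axis) of every tested gene in 6 lists (y axis). Each point is a gene, filled where the adjusted p was below 0.05, and the bar is the list's median. The medians are 0.86 for the 9 measured genes, 0.40 for other hypoxia-response genes outside glycolysis and 0.18 for the glycolytic list, against 0.05 for all tested genes. The lists were chosen with earlier results of these data known.

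The genes with the nearest patterns were found from the root mean square difference of the 3 log2 changes from vehicle, over 12626 other tested genes. ADM lay nearest to MMP10 (0.075) and TIPARP (0.12), ANKRD37 to GADD45A (0.038) and AKR1C2 (0.060), and NDRG1 to RND1 and BCAT1 (0.032 each). VEGFA lay nearest to ZNF124 (0.031) and PMAIP1 (0.054), BNIP3 to RABEP2 (0.021) and ALKBH8 (0.022), P4HA1 to SNAPC4 and BMAL1 (0.022 each), and EGLN1 to PNISR-AS1 (0.0088) and IPPK (0.0092). EGLN3 was nearest to FAM174C (0.029) and LRP3 (0.033), and ANGPTL4 to REEP1 (0.11) and PGBD4 (0.13). Among the 9 themselves, the closest pairs were EGLN1 with P4HA1 (0.18), BNIP3 with P4HA1 (0.20), VEGFA with NDRG1 (0.22) and, at 0.26 each, ADM with ANKRD37, EGLN1 with BNIP3 and EGLN1 with EGLN3. The 3 comparisons share the vehicle arrays, so their changes are not independent. Most distances to the nearest genes were smaller than the SE of a single change of the 9 genes (0.07 to 0.15). Which gene comes out nearest is therefore uncertain and was not tested.

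Some array controls differed at 16 h, and others did not. The log2 difference between 3′ and 5′ ACTB control probe sets ranged from 4.00 to 4.18 at 16 h, from 2.58 to 3.38 at 4 h and 6 h, and from 2.72 to 2.87 on vehicle arrays. The same difference for GAPDH averaged -0.46 in vehicle, then -0.50, -0.51 and -0.43 after 4 h, 6 h and 16 h of treatment. The mean 18S ribosomal RNA signal was 9.62 in vehicle, lower after 4 h (8.98) and 6 h (8.64), and 11.06 after 16 h. Their part in the results was not tested. Prostate epithelial markers averaged 7.19 to 7.25 per array at 16 h and 7.58 to 7.66 on vehicle arrays, with 8 of 10 measured and none at the level of the unspiked controls. Of these, 4 fell at 16 h, with log2 changes of -1.3 for KLK2, -1.06 for HOXB13, -0.5 for TMPRSS2 and -0.25 for FOXA1. Another 1 rose and 3 did not pass, where 16.8% of all tested genes fell and 26.0% rose. Fibroblast markers averaged 2.91 to 3.02 at 16 h and 2.52 to 2.71 on vehicle arrays, with COL1A2, PDGFRB and FAP at or below the controls on all arrays, while COL1A1 and LUM rose and DCN and COL3A1 fell. Of 7 endothelial markers 4 (CDH5, VWF, KDR and CLDN5) were at or below the controls on all arrays, and no leukocyte marker reached the signal filter.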

How the data were processed

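The authors deposited log2 signals, 1 column per array, made with GCRMA per the submitters' processing notes, which give no version. GCRMA corrects background by probe sequence and brings arrays to a common distribution, so a shift shared by most genes would not show. A genome build is not given in the sources used here. The values ran from -0.49 to 13.77, with array medians from 2.10 to 2.15. The number of arrays, 12, limits the precision.

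Of 54675 probe sets, 41097 had 1 symbol in the platform annotation, 1801 had several and 11777 were not listed. Symbols were updated by Entrez identifier through a RefSeq table, and 62 control probe sets were set aside. Arrays of all 4 groups entered 1 model per gene (lmFit and eBayes of limma 3.58.1, run in R 4.3.3, with 8 residual and 3.69 prior degrees of freedom), tested two-sided for 6 comparisons, with Benjamini-Hochberg adjustment over 12635 genes. The fit was also run on simulated data with independent normal noise and fewer changed genes than the 16 h comparison had. The outcome of that run is not used as support here. The same fit over 27306 probe sets served the probe sets of each gene.

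The 10 genes, the other lists and the tests were chosen with earlier results of these data known. The naming rule took the 10 genes, up to 4 changed genes of each other list with the largest 16 h change, the 2 nearest patterns per gene, ONECUT2, and 4 promoters. Replicate numbers appear in the titles, and deviations of arrays with the same number correlated at 0.00 to 0.24 across genes. The highest values, 0.21, 0.22 and 0.24, were between replicate 1 arrays of the treated groups. Arrays with different numbers were not compared, so pairing was not tested. The main fit did not treat the arrays as pairs, and a fit with the replicate number as a block is among the alternatives below. The figures were drawn with matplotlib 3.10.9.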

Additional observations from a re-analysis of the deposited data

Results flagged for a closer look

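The change from vehicle differed between 16 h and 6 h for 8 of the 9 genes, by limma's test of 16 h against 6 h, which is the test of that difference. The log2 values were 2.32 for ADM, 2.36 for ANKRD37, 1.38 for VEGFA, 0.34 for EGLN1, 0.81 for BNIP3, 1.38 for NDRG1, -0.32 for ANGPTL4 and 0.72 for P4HA1. The same comparison passed for 42.7% of all tested genes. The ACTB 3′ to 5′ difference averaged 4.09 on the 16 h arrays and 3.02 on the 6 h arrays, and its part in these differences was not tested.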

How the results depend on the processing

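The 7 rises at 16 h against vehicle were counted as 7 without each array in turn, and the 1 fall as 1. For 6 of these genes the rise passed under all alternatives run. The exception was P4HA1, which did not pass with its probe sets averaged (0.18, adjusted p = 0.15, and 0.22, adjusted p = 0.081, for 16 h against 4 h) and is left untested when probe sets named _s_at or _x_at are set aside where a gene has another. With averaging 6 genes rose at 16 h against vehicle, 7 against 6 h and 6 against 4 h, and with those set aside 6, 6 and 7. Averaging also leaves EGLN3 below the signal filter and untested. The filter at the 75th percentile leaves EGLN3 and ANGPTL4 untested. Without ANGPTL4 the count of falls became 0 at 4 h, 0 at 16 h against vehicle and 0 at 16 h against 6 h. That last count was also 0 with only the 2 groups compared. With a trended and robust prior 1 gene, ADM, rose at 4 h, and under quantile normalisation, the trended and robust prior, array weights and the replicate block 1 gene, ANGPTL4, rose for 6 h against 4 h, where 0 did in the main analysis. Leaving out each array gave 0 to 1 falls at 4 h, 0 to 1 falls at 16 h against 6 h and 7 to 9 rises at 16 h against 4 h. The replicate block changed 1 other call, of ANGPTL4 at 16 h against 4 h (0.29, adjusted p = 0.022). No called change turned its direction under any alternative run, and 17 values that passed in neither fit changed sign. A signal near the unspiked controls limits EGLN3, and the 5 dimmest probe sets carry no usable level. Median log2 changes over all genes moved from 0.05 to 0.00 at 16 h under quantile normalisation.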
